A study of Mus musculus with 24 samples.

Results

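Capn8, Ido1, Hc, Pak6 and Proc are 5 of the 16118 genes measured by poly(A) RNA sequencing in the inguinal fat pads of young mice. They were taken by symbol, having been selected on values of these same data: their interactions with sex stood out among all genes. Capn8, Ido1, Pak6 and Proc came from the interaction of age with sex under standard weaning. Hc, Pak6 and Proc came from the interaction of weaning with sex at day 28. Their group levels are therefore given as a description, with no test. All 5 passed the filter on low reads, which kept 16005 genes.

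The series compared standard weaning with prolonged suckling in 24 mice, with 1 library per mouse and 4 mice in each of 6 groups. Both sexes were taken at postnatal day 21 (p21). The p28 mice of both sexes, taken at day 28, had either been parted from the mother at p21, which is standard weaning (SW), or had stayed with her, which is delayed weaning (DW). No strain, genotype or litter is named in the labels, and the animals carry individual numbers, which are used below. Because nothing says how litters were spread over groups, p-values measure only the spread between these animals.

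Calpain 8 (Capn8) is a calcium-dependent cysteine protease best known from the stomach lining. Indoleamine 2,3-dioxygenase 1 (Ido1) carries out the first and rate-limiting step of tryptophan breakdown to kynurenine, and interferon gamma is its classical inducer. Hc is the mouse gene for complement component C5, whose cleavage yields the inflammatory peptide C5a and starts the membrane attack complex. Pak6 is a p21-activated kinase of the group that binds Cdc42, and it also binds the androgen receptor. Proc encodes protein C, a vitamin K-dependent zymogen made mainly by the liver, which restrains clotting once thrombin bound to thrombomodulin has activated it. In a female mouse the inguinal pad also houses the ducts of a mammary gland, whose luminal cells contain keratins 7, 8, 18 and 19 and whose basal cells contain keratins 5, 14 and 17. Fewer cells of a type and less RNA per cell cannot be told apart in such bulk tissue.

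Because the 5 genes were high and low in the same groups, the DNA before the start sites is shown for Capn8, Hc and Pak6. These are 3 of the 5, with RefSeq sequence in build GRCm38.p6. The promoters of the other members were not examined, so nothing is said about motifs in them. Each sequence holds the 250 bases before the start site, 5′ to 3′ on the gene's own strand, and capitals mark a match to the AP-1 motif TGANTCA. The windows are chr1:182564757-182565006 (plus strand) for Capn8, chr2:35061413-35061662 (minus strand) for Hc and chr2:118663327-118663576 (plus strand) for Pak6.
Capn8: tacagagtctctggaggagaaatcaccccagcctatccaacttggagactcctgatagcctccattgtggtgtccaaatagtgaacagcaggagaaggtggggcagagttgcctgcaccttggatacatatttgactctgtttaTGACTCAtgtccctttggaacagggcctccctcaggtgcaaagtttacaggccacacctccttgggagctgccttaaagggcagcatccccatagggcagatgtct
Hc: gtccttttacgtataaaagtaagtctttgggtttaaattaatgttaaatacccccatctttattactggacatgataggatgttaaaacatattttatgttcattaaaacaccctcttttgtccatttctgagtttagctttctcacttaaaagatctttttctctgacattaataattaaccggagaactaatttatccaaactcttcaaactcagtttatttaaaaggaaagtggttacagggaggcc
Pak6: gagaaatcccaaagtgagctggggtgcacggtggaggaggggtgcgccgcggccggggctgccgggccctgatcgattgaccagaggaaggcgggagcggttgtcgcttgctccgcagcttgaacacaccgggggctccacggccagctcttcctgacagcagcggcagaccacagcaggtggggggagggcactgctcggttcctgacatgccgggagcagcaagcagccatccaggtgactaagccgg
The Capn8 match begins 106 bases before the start site. Pak6 has a match beginning at +12, past the printed stretch, and a second Pak6 window has none. No AP-1 match was found in the Hc window. Over windows from 250 bases before to 50 bases after the start and on both strands, 7.81% of 32851 mouse promoters hold this motif.

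A further 9 motifs were searched in the same windows. The ETS motif, searched as GGAAGT and held by 23.8% of all promoters, had no match in Capn8, Hc or Pak6. The GATA motif, searched as AGATAA (11.2% of promoters), had none. The nuclear receptor element, searched as AGGTCA (16.3% of promoters), and the STAT element, searched as TTCNNNGAA (8.3% of promoters), had none. Neither did the forkhead motif, searched as TGTTTAC (3.65% of promoters), nor the C/EBP motif, searched as TTGCNNAA (10.8% of promoters). The AP-2 motif, searched as GCCNNNGGC (16.6% of promoters), and the interferon-stimulated response element (3.44% of promoters) had none. A TATA match (TATAAA, 13.6%) begins 239 bases before the Hc start and is left in lower case above. No 2 of the matches found overlap, and none of the 10 motifs matched in Capn8, Hc and Pak6 alike. A match describes letters and is not evidence of binding.

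All values below are the deposited normalised read counts, which are not per gene length, so levels are compared between animals and never between genes. Gene positions are as deposited, in a build that is not settled. The submitters' processing notes name mm10, yet only 2.23% of 16095 gene starts equalled those of its GRCm38 annotation. Adipocyte genes marked every library as fat: Adipoq ran from 787.4 to 1527, Plin1 from 909.1 to 1455 and Fabp4 from 9997 to 17460. Reads in the listed genes ran from 57600711 to 302145813 per library. In these units 3 reads were worth 0.0107 to 0.0462 in males, and a listed 0 allows a level up to that of 3 reads by counting error alone. DW females 82 and 83 stood apart from DW females 76 and 77. Their mean log2(value + 1) over 8 adipocyte genes was 9.796 and 9.701, the lowest of the 12 females, against 10.295 and 10.196, and their summed keratins were also lower, as given below. Differences between DW and SW females are therefore also given without these 2 animals, where limma's calls among all genes went from 204 to 7.

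**Figure D1:**
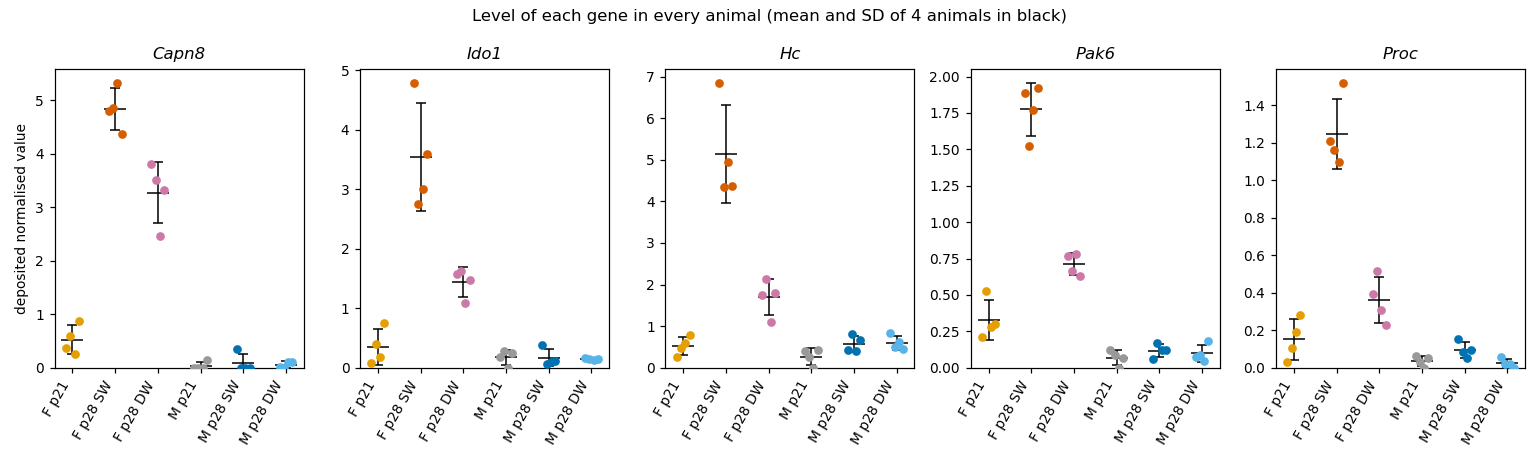
Deposited normalised value (linear y axis, a separate scale per gene) of Capn8, Ido1, Hc, Pak6 and Proc in every mouse, with the mean and SD of 4 mice in black for each of 6 groups. SW females (F p28 SW) are highest in all 5 panels, at means of 4.83, 3.54, 5.13, 1.77 and 1.25, and males (M) lie near the bottom.

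Across the 6 groups the same order appeared for all 5 genes among females: SW at p28 was highest, DW at p28 was intermediate, and p21 was lowest. The 4 SW females lay above all 4 p21 females for 5 of 5 genes, where 11.4% of all genes tested showed that separation. The 4 DW females lay below all 4 SW females for 5 of 5 genes, where 3.52% of genes did. DW females lay above all p21 females for 4 of the 5, Proc being the exception (7.44% of genes). Against males of the same age and weaning, females did not overlap for 5 of 5 genes under SW (6.27% of genes), for 5 of 5 under DW (5.6%) and for Capn8 and Pak6 at p21 (2.98%). These shares stand beside counts that the choice of genes fixed. Limma called 11.6% of genes in the first comparison and 1.27% in the second.

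The protease gene Capn8 (ENSMUSG00000038599, chromosome 1, 182392572 to 182459917 in the deposited positions) was 0.376, 0.592, 0.251 and 0.880 in p21 females 30, 36, 55 and 56. It was 4.79, 4.85, 5.32 and 4.37 in SW females 73, 74, 75 and 81. In DW females 76, 77, 82 and 83 it was 3.8, 3.51, 2.46 and 3.32. The 3 female groups did not overlap, and Capn8 kept the largest part of its SW level in DW females of the 5 genes. Group means were 0.525 ± 0.276 at p21, 4.83 ± 0.388 under SW and 3.27 ± 0.576 under DW (SD, n = 4 each). SW females were at 9.21 times the p21 mean, and DW females at 67.7% of the SW mean, or 75.6% without females 82 and 83.

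Capn8 was close to absent in males. It was 0 in 7 of the 12, and 0.149 in p21 male 54, 0.344 in SW male 78 and 0.0141, 0.113 and 0.115 in DW males 79, 86 and 87. The value of male 78 rests on 36 reads and that of male 79 on 2, against 450 to 748 reads in SW females. Male 78 was above p21 female 55, the female with the least Capn8, while no p21 male reached the p21 females.

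Ido1 (ENSMUSG00000031551, chromosome 8, 25074152 to 25087025), the tryptophan-degrading enzyme, was 0.0800, 0.404, 0.173 and 0.752 in p21 females 30, 36, 55 and 56. It was 4.79, 2.76, 3.01 and 3.60 in SW females 73, 74, 75 and 81, and 1.58, 1.63, 1.08 and 1.48 in DW females 76, 77, 82 and 83. SW female 73 had the most Ido1, and DW female 82 the least of the p28 females. Means were 0.352 ± 0.299, 3.54 ± 0.905 and 1.44 ± 0.247 in p21, SW and DW females (SD, n = 4 each). The SW mean was 10.1 times the p21 mean. The DW mean was 40.7% of the SW mean, or 45.2% without females 82 and 83.

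In males Ido1 did not separate the groups. It was 0.181, 0.277, 0 and 0.241 in p21 males 37, 38, 53 and 54, and 0.382, 0.0700, 0.1 and 0.119 in SW males 78, 84, 85 and 124. In DW males 79, 80, 86 and 87 it was 0.162, 0.150, 0.132 and 0.150. The p21 females overlapped the males, and both p28 female groups lay above all of them.

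Hc (ENSMUSG00000026874, chromosome 2, 34873343 to 34951450), the complement C5 gene, was 0.264, 0.470, 0.588 and 0.779 in p21 females 30, 36, 55 and 56. It was 6.85, 4.35, 4.95 and 4.37 in SW females 73, 74, 75 and 81, and 1.76, 2.14, 1.10 and 1.79 in DW females 76, 77, 82 and 83. As with Ido1, female 73 was the highest of the SW females and female 82 the lowest of the DW females. Means were 0.525 ± 0.216, 5.13 ± 1.18 and 1.70 ± 0.435 (SD, n = 4 each), so SW females were at 9.77 times the p21 level. DW females were at 33.1% of the SW level, or 38.0% without females 82 and 83.

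Hc had the highest male levels relative to its own female levels of the 5 genes. Values were 0.401, 0.255, 0 and 0.424 in p21 males 37, 38, 53 and 54. They were 0.421, 0.812, 0.394 and 0.658 in SW males 78, 84, 85 and 124, and 0.825, 0.503, 0.623 and 0.451 in DW males 79, 80, 86 and 87. SW and DW males overlapped with each other and with p21 females, while every p28 female lay above every male.

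The kinase gene Pak6 (ENSMUSG00000074923, chromosome 2, 118493784 to 118528501) was 0.208, 0.527, 0.279 and 0.303 in p21 females 30, 36, 55 and 56. It was 1.89, 1.52, 1.77 and 1.92 in SW females 73, 74, 75 and 81, and 0.770, 0.666, 0.783 and 0.633 in DW females 76, 77, 82 and 83. The animals of each p28 female group lay close together, females 82 and 83 included. Means were 0.329 ± 0.138, 1.77 ± 0.186 and 0.713 ± 0.0748 (SD, n = 4 each), a 5.39-fold higher level in SW than in p21 females. The DW mean was 40.2% of the SW mean, or 40.5% without females 82 and 83.

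Males had from 0 to 0.186 of Pak6, below every female at any age. It was 0.123, 0.0868, 0 and 0.0664 in p21 males 37, 38, 53 and 54, and 0.0574, 0.168, 0.125 and 0.119 in SW males 78, 84, 85 and 124. DW males 79, 80, 86 and 87 had 0.0705, 0.0900, 0.0472 and 0.186. The 3 male groups overlapped.

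Proc (ENSMUSG00000024386, chromosome 18, 32256179 to 32272623), the anticoagulant zymogen, was 0.0320, 0.103, 0.193 and 0.284 in p21 females 30, 36, 55 and 56, on 4 to 31 reads. It was 1.21, 1.16, 1.10 and 1.52 in SW females 73, 74, 75 and 81, and 0.394, 0.515, 0.308 and 0.227 in DW females 76, 77, 82 and 83. Proc was the 1 gene of the 5 whose DW and p21 females overlapped. Means were 0.153 ± 0.109, 1.25 ± 0.186 and 0.361 ± 0.123 (SD, n = 4 each). The SW mean was 8.14 times the p21 mean, and the DW mean was 29% of the SW mean, or 36.5% without females 82 and 83.

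Male Proc rested on at most 16 reads per library in the p28 groups. Values were 0.0647, 0.0326, 0 and 0.0498 in p21 males 37, 38, 53 and 54, and 0.153, 0.0840, 0.0501 and 0.0951 in SW males 78, 84, 85 and 124. DW males 79, 80, 86 and 87 had 0.0564, 0.0225, 0.0189 and 0. The male groups overlapped one another and the p21 females, and p21 male 53, the shallowest of the 24 libraries, was at 0 for all 5 genes. In male 53, 3 reads were worth 0.0462, below the Ido1, Hc and Pak6 values of the other p21 males. The part of depth in its values of 0 was not tested.

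The 2 interactions that picked the genes are given as sizes only, on the log2(value + 1) scale. The age effect was greater in females than in males by 1.89 for Capn8, 1.76 for Ido1, 1.69 for Hc, 1.00 for Pak6 and 0.88 for Proc, where limma called 1.03% of all genes. The DW minus SW difference was more negative in females for all 5, by -0.43, -0.86, -1.21, -0.67 and -0.63 in the same order, where 0.0187% were called. On the recovered reads, edgeR gave weaning by sex values of -0.04, -1.08, -1.63, -1.01 and 0.11, so that Proc turned positive and Capn8 was near 0. Without females 82 and 83, limma gave -0.30, -0.77, -1.07, -0.66 and -0.53 and edgeR 0.08, -0.97, -1.46, -1.04 and 0.41. Set as ratios of means, Capn8 was 56.2 times as high in SW females as in SW males and 54 times as high in DW females as in DW males, and Proc 13 and 14.8 times. For Ido1 the same ratios were 21.1 and 9.7, for Hc 8.99 and 2.83, and for Pak6 15.1 and 7.25. The ratio was thus lower under DW for Ido1, Hc and Pak6 and close under both for Capn8 and Proc, whose male means rest on few reads.

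The keratins of the mammary ducts moved between the female groups as well. Their summed level over 7 keratins was 13.9 to 57.5 in p21 females, 201 to 278 in SW females and 54.8 to 156 in DW females. The DW females were split: females 76 and 77 had 156 and 134, and females 82 and 83 had 54.8 and 57.3. By limma's adjusted p-value, 6 of 7 keratins rose from p21 to SW in females, all except Krt14, and 1 of 7, Krt7, was lower under DW (-1.38, adjusted p = 0.046). Without females 82 and 83 the Krt7 difference was -0.68 (limma adjusted p = 0.97), and no keratin was called. Krt8 was 10.1 ± 5.81, 62.1 ± 9.33 and 24.7 ± 15.2 in p21, SW and DW females (SD, n = 4 each), and Krt19 was 9.19 ± 4.51, 77.8 ± 13.2 and 34.9 ± 17.7. In DW females 76 and 77 alone, Krt8 averaged 37.6 and Krt19 50. Of 20 luminal genes, 18 rose from p21 to SW in females (7.39% of all genes), and Cldn3, Cldn4, Cldn7 and Ehf fell under DW (0.812% of all genes). Without females 82 and 83 none of these 4 was called, with differences of -0.82, -0.72, -0.54 and -0.76 (limma adjusted p from 0.0982 to 0.647). Of 8 basal genes, only Oxtr (2.88), Lgals7 (1.10) and Dst (0.55) rose from p21 to SW by limma's adjusted p-value. The others, such as Trp63 (-0.09) and Dsc3 (-0.11), were not called. No basal gene was called between DW and SW females. In males the keratin sum was 0.505 to 25.2, and the 2 highest males were SW male 78 and p21 male 54, those with the most Capn8.

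The 5 genes were chosen by group differences, so how they varied with the keratins inside the groups was tested. That choice was not fully independent of this, since a p-value is smaller where animals of a group vary less. A keratin score was taken as the mean log2(value + 1) of the 7 keratins, and each gene was fitted on it across the 12 females with a separate level for each group. The slope is the change in a gene's log2(value + 1) per unit of score between animals of the same group. It was called for 65 of 16005 genes (0.406%, with 0.387% in the upward direction), among them the 7 keratins that make up the score and Epcam, Cdh1, Foxa1 and Lcn2 of the 20 luminal genes. None of the 5 genes was called by limma, edgeR likewise called none, and DESeq2 called Capn8 alone of the 5, among 1108 genes in all (7.51% of 14760 with an adjusted p). At an unadjusted limma p under 0.05, Capn8 passed with 4124 genes in all. The count of 65 depended on single animals, falling to 13 without DW female 77 and reaching 4562 without p21 female 55.

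All 5 female slopes were above 0, as were 53.9% of those of all genes. Capn8 had a slope of 0.27 (SE 0.09, 95% confidence interval 0.07 to 0.47, limma adjusted p = 0.137, unadjusted p = 0.0129). Ido1 had 0.26 (SE 0.12, interval -0.01 to 0.52, limma adjusted p = 0.201). These were the steepest slopes of the 5 over all 12 females, yet by p-value Capn8 ranked 1508th and Ido1 4338th of 16005 genes. Hc had 0.12 (SE 0.13, interval -0.16 to 0.41), Pak6 0.08 (SE 0.07, interval -0.07 to 0.23) and Proc 0.11 (SE 0.07, interval -0.04 to 0.27), with limma adjusted p-values of 0.571, 0.465 and 0.315. For comparison, Krt8 and Krt19, which are part of the score, had slopes of 1.31 and 1.03. The 1 added to each value shrinks slopes of genes with low values, so the 5 genes and these keratins are not on equal terms. Slopes of the 20 luminal genes, none of them in the score, ran from 0.02 (Wfdc18) to 1.11 (Foxa1). Among them Cldn7 (0.31, limma adjusted p = 0.135) and Spint1 (0.28, limma adjusted p = 0.137) were not called.

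DESeq2 on recovered reads gave Capn8 a slope of 0.60 on the log2 scale of reads (adjusted p = 0.0452, beside 7.51% of genes called), and edgeR gave 0.63 (adjusted p = 0.139). Ido1 was steeper on that scale, at 0.83 with DESeq2 (adjusted p = 0.079) and 0.81 with edgeR (adjusted p = 0.176). With DESeq2 and edgeR in turn, Proc had 0.43 and 0.42, Pak6 0.24 and 0.25, and Hc 0.22 and 0.21, none of them called. Without p21 female 55 the Proc slope was 0.23 (limma adjusted p = 0.0466) against a background of 4562 called genes. Without DW females 82 and 83 the slopes were 0.28 for Capn8, 0.31 for Ido1, 0.03 for Hc, 0.13 for Pak6 and 0.06 for Proc, none of them called. With only the 8 females at p28 the order changed: the slopes were 0.21 for Proc (limma adjusted p = 0.085), 0.20 for Capn8, 0.19 for Hc, 0.17 for Ido1 and 0.04 for Pak6, where 6280 genes were called.

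**Figure D2:**
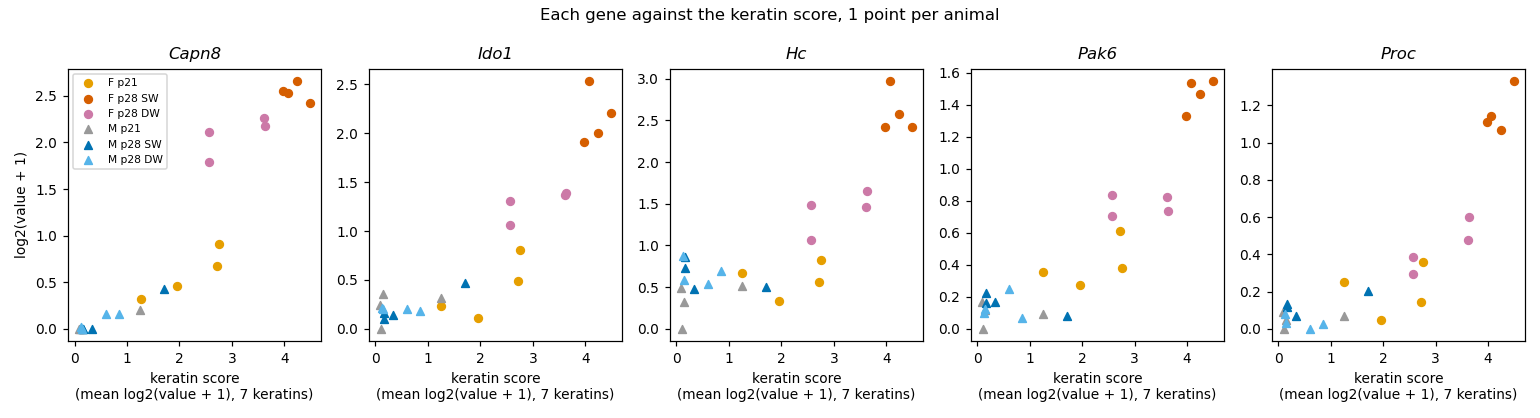
Log2(value + 1) of each gene (y axis, a separate scale per gene) against the keratin score (x axis, mean log2(value + 1) of 7 keratins), 1 point per mouse, circles for females and triangles for males. SW females lie at upper right, at scores from 3.97 to 4.49, and DW females 82 and 83 at a score of 2.56 have Pak6 levels like those of DW females 76 and 77.

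The same variation was expressed as a correlation of values centred on their group means, with exact two-sided p-values from all 13824 rearrangements within groups. Over the 12 females, Capn8 gave Pearson's r = 0.762 (exact p = 0.0324) and Spearman's rho = 0.748 (exact p = 0.0411). Ido1 gave r = 0.566 (exact p = 0.0788) and rho = 0.713 (exact p = 0.0321). These p-values are not adjusted for the 10 relations computed in the 2 sexes. Proc gave r = 0.495 (exact p = 0.168) and rho = 0.420 (exact p = 0.241), Pak6 gave r = 0.420 (exact p = 0.287) and rho = 0.462 (exact p = 0.153), and Hc gave r = 0.291 (exact p = 0.393) and rho = 0.266 (exact p = 0.434). With p21 females 55 and 56 left out, whose group-centred scores lay farthest from the median, r was 0.632 for Capn8, 0.476 for Ido1, 0.405 for Hc, 0.467 for Pak6 and 0.794 for Proc. Capn8 had the highest r over all 12 and Proc the highest without these 2 animals, so the order of the 5 rests on p21 females.

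In males the score varied mostly through p21 male 54 (1.243) and SW male 78 (1.703), with the other 10 between 0.0941 and 0.849. Capn8 had a male slope of 0.24 (SE 0.04, 95% confidence interval 0.16 to 0.33, limma adjusted p = 0.033), where 0.187% of genes were called. Its centred r was 0.971 (exact p = 0.0104) and its rho 0.823 (exact p = 0.0104) over 12 males, and r was 0.926 without males 54 and 78. All p21 and SW males then left had Capn8 at 0. That r of 0.926 therefore rests on the DW males alone, with 0 to 13 reads of Capn8. Leaving out 1 male at a time ended the call for 11 of the 12, with adjusted p-values from 0.0503 to 1.00, the last without male 78, where the slope was 0.19. Only the fit without p21 male 53 kept it (adjusted p = 0.0219). The slopes of Ido1 (0.15), Hc (-0.03), Pak6 (-0.04) and Proc (0.03) were not called in males. For Ido1, r was 0.662 (exact p = 0.111) and rho 0.538 (exact p = 0.126), and r was -0.038 without males 54 and 78. For Hc r was -0.086 (exact p = 0.799) and rho -0.399 (exact p = 0.276), for Pak6 -0.317 (exact p = 0.348) and -0.231 (exact p = 0.488), and for Proc 0.448 (exact p = 0.259) and 0.063 (exact p = 0.882). Without males 54 and 78 these r became -0.258, 0.034 and -0.471. The difference between the female and male slopes was not called for any of the 5 by limma (adjusted p from 0.490 to 0.911), where 0.0187% of genes were called. It was 0.03 for Capn8 (SE 0.09) and 0.15 for Hc (SE 0.18).

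**Figure D3:**
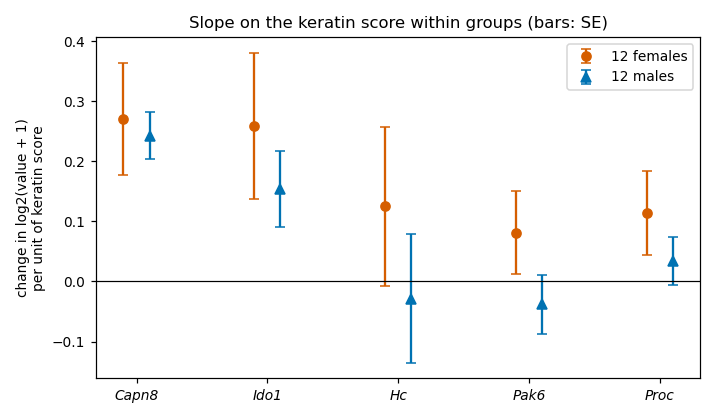
Slope of each gene on the keratin score within groups (y axis, change in log2(value + 1) per unit of score) in 12 females (circles) and 12 males (triangles), with bars of 1 SE. Capn8 has slopes of 0.27 and 0.24 in the 2 sexes, while the male values of Hc and Pak6 lie just under 0.

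Group differences were then set beside the same differences with the keratin score in the fit, as sizes with SE and no test. The DW minus SW difference in females went from -0.46 (SE 0.14) to -0.16 (SE 0.15) for Capn8 and from -0.88 (SE 0.16) to -0.60 (SE 0.20) for Ido1. For Hc it went from -1.18 (SE 0.16) to -1.04 (SE 0.21), for Pak6 from -0.69 (SE 0.08) to -0.61 (SE 0.11) and for Proc from -0.72 (SE 0.09) to -0.60 (SE 0.11). Over all females, Capn8 lost most of this difference at equal keratin score and the other 4 kept most of theirs. Whether Capn8 differed from the other 4 in this was not tested. Without females 82 and 83 the differences went from -0.32 to -0.16 for Capn8, -0.78 to -0.61 for Ido1, -1.04 to -1.02 for Hc, -0.69 to -0.62 for Pak6 and -0.62 to -0.59 for Proc. Krt8 and Krt18, as parts of the score, went from -1.50 to -0.06 and from -1.33 to -0.18. The SW minus p21 difference stayed above 0 for all 5, at 1.40 (SE 0.22) for Capn8, 1.23 (SE 0.28) for Ido1, 1.75 (SE 0.31) for Hc, 0.90 (SE 0.16) for Pak6 and 0.73 (SE 0.16) for Proc. Without the score these were 1.95, 1.75, 2.00, 1.06 and 0.96.

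**Figure D4:**
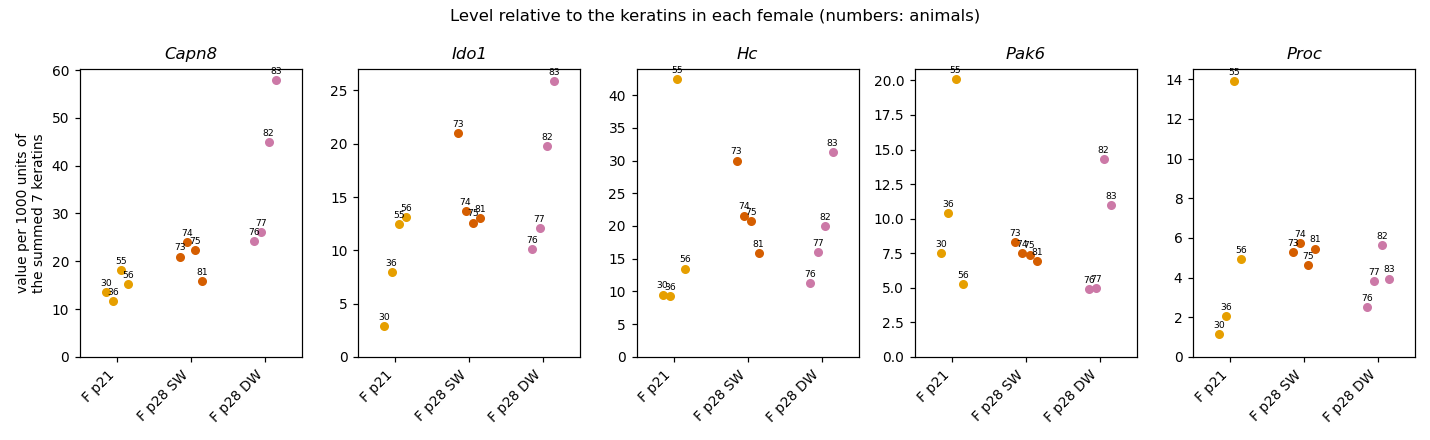
Value of each gene per 1000 units of the 7 summed keratins (linear y axis, a separate scale per gene) in each of the 12 females, labelled by animal number. DW females 82 and 83 have 44.9 and 58 for Capn8 against 24.3 and 26.2 in DW females 76 and 77.

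Relative to the keratin sum, the 5 genes differed among themselves. Capn8 per 1000 keratin units was 14.7 ± 2.69 in p21, 20.8 ± 3.59 in SW and 38.3 ± 16.1 in DW females (SD, n = 4 each). All 4 DW females lay above the SW range of 15.8 to 24.1, females 76 and 77 only just and females 82 and 83 by far. Pak6 per 1000 keratin units was 10.8 ± 6.55, 7.54 ± 0.563 and 8.80 ± 4.64 (SD, n = 4 each), where the DW mean hid a split: 4.93 and 4.97 in females 76 and 77, and 14.3 and 11 in females 82 and 83. The SW range was 6.93 to 8.29, so that 2 DW females lay below it and 2 above. Ido1 (9.12 ± 4.73, 15.1 ± 3.96 and 17.0 ± 7.25), Hc (18.7 ± 15.9, 22.0 ± 5.90 and 19.7 ± 8.55) and Proc (5.51 ± 5.82, 5.28 ± 0.488 and 3.99 ± 1.27) overlapped between all 3 female groups (SD, n = 4 each). For Hc, p21 overlapped SW only through female 55 (42.4), since the other p21 females had 9.31 to 13.5 and SW females 15.8 to 30. The wide p21 spread of Hc, Pak6 and Proc came with female 55, whose keratin sum was 13.9. These ratios are given without a test.

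Scores of other tissues in the pad were fitted in the same way in the 12 females. For muscle, lymph node, adipocyte, endothelial and dendritic cell scores no slope of the 5 genes was called by limma, where 0.625%, 0%, 25.3%, 0.0687% and 0% of genes were. At an unadjusted p-value under 0.05, the lymph node score had 1004 genes and the dendritic score 998, none of the 5 among them. On the macrophage score, which called 27.4% of all genes, Proc was called with a slope of 0.36 (SE 0.12, limma adjusted p = 0.0486), and the other 4 were not. Liver and stomach markers were also read, since Proc and Hc are best known from the liver and Capn8 from the stomach. Of 10 liver genes, 7 were listed, with a sum of 24.9 to 43.2 in SW females and 44.3 to 64.4 in DW females. Single liver genes differed: albumin (Alb) was higher in DW than in SW females by 1.02 (limma adjusted p = 0.0064, and 0.68 with adjusted p = 0.379 without females 82 and 83). The other listed liver genes were not called: Fgb (-0.63), Apoa1 (-0.22), F2 (-0.08), Ahsg (-0.003), Serpina1a (0.07) and Apoh (0.03). The part of liver RNA in the Proc and Hc values was not tested. From p21 to SW females fibrinogen beta (Fgb) rose by 2.48 (limma adjusted p = 5.706e-06), the only listed liver gene called. The others differed by -0.37 (Alb), 0.10 (Apoa1), -0.08 (Ahsg), -0.03 (F2), 0.12 (Serpina1a) and -0.01 (Apoh). The liver sum of p21 females, 27.7 to 33, lay within that of SW females. Of 8 stomach genes, 2 were listed, Muc5ac and Capn9, with sums of 0 to 0.920 in all groups.

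The partners of the 5 genes in their own pathways were taken as fixed lists of 97 genes, of which 90 were tested. From p21 to SW in females, 13 of the 90 rose and 2 fell (16.7%), beside 11.6% of all genes, of which 7.39% rose and 4.23% fell. edgeR called 13 and DESeq2 17. Between DW and SW females none of the 90 was called by limma, edgeR or DESeq2. At an unadjusted limma p under 0.05 there were 20, beside 3019 of all 16005 genes. Without females 82 and 83, 0 were called and 3 passed unadjusted. None of the 90 was called for either sex interaction (5 and 8 unadjusted, beside 1304 and 815 of all genes). For the keratin slope limma and edgeR called none (19 unadjusted by limma, beside 4124 of all genes). DESeq2 called Capn5, Capn15, Ido2, Rhov and Git1 for that slope, 5 of the 90 beside 7.51% of all genes.

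Of the 15 other calpain genes, the family of Capn8, none was called from p21 to SW in females by limma or edgeR, DESeq2 called Capn13, and their median change was 0.03 on the log2(value + 1) scale, beside 0.01 over all genes. Of 15 kynurenine pathway genes tested around Ido1, 2 fell: Kyat3, a kynurenine aminotransferase, by 0.55 (limma adjusted p = 0.0217), and Slc7a5, a transporter of tryptophan and other large amino acids, by 0.53 (limma adjusted p = 0.00801). Of 13 interferon gamma genes 3 rose: Cxcl9 by 1.21 (limma adjusted p = 0.00112), Cxcl10 by 0.99 (limma adjusted p = 0.00295) and Gbp2 by 0.47. Cxcl9, an interferon-induced chemokine, was 40.8 ± 7.16, 94.8 ± 5.69 and 67.8 ± 34.3 in p21, SW and DW females and 114 ± 10.2 in SW males (SD, n = 4 each). The Cxcl9 mean was 96.0 in DW females 76 and 77 alone. It was not lower in SW males than in SW females, unlike that of Ido1, a difference between genes that was not tested. Ido1 was chosen by its interaction with sex, so the choice shaped this contrast.

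Complement held the most called partners, 6 of 16 tested around Hc, all higher in SW than in p21 females. C6, which joins C5b in the membrane attack complex, rose by 1.51 (SE 0.17, limma adjusted p = 3.007e-06). The C5a receptors C5ar1 and C5ar2 rose by 0.99 (limma adjusted p = 0.00465) and 0.68 (limma adjusted p = 0.0029), and the C3a receptor C3ar1 by 1.40 (limma adjusted p = 5.695e-05). Cd55, a membrane inhibitor of complement, rose by 0.58, and C2, a protease of the classical pathway, by 0.50, which edgeR did not call. C6 was 0.413 ± 0.179, 3.03 ± 0.479 and 1.92 ± 0.325 in p21, SW and DW females and 2.94 ± 0.973 in SW males (SD, n = 4 each). The 2 sexes under SW thus lay within 1 SD of each other for C6 and not for Hc. Hc was chosen by its interaction with sex, so the choice shaped this contrast, which was not tested. In DW females 76 and 77 alone the C6 mean was 2.18. The macrophage marker sum moved with the receptor genes: it was 227 to 276 in p21 and 491 to 568 in SW females, and its part in their rise was not tested.

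Around Proc, 2 of 17 coagulation and protein C genes rose: Gas6, a vitamin K-dependent ligand, by 0.92 (limma adjusted p = 0.00996), and F8, coagulation factor VIII, by 0.53 (limma adjusted p = 0.0242). Around Pak6, 2 of 14 rose: Pak1, a kinase of the same family, by 0.74 (limma adjusted p = 0.0032), and Rhov, a Cdc42-like GTPase, by 0.63 (limma adjusted p = 0.00306), which neither edgeR nor DESeq2 called. Rhov was 0.352, 1.06 and 0.478 on average in p21, SW and DW females and at most 0.0813 on average in a male group, the same order as Pak6. Its mean in DW females 76 and 77 alone was 0.749.

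The genes most like each of the 5 were found among the 13285 genes that averaged 1 or more on the log2(value + 1) scale in SW females, the 5 included. Over all 24 animals, where differences between groups dominate, Capn8 was closest to Cyp3a57 (Pearson's r = 0.989), Tspan1 (0.983) and Fermt1 (0.983). Ido1 was closest to Faim2 (0.980), Pls1 (0.978) and Cldn7 (0.978), Hc to Kera (0.962), Ido1 (0.960) and Faim2 (0.952). Pak6 was closest to Col9a1 (0.969), Arhgap40 (0.966) and Faim2 (0.964), and Proc to Smim22 (0.978), Faim2 (0.960) and Pak6 (0.957). Faim2 was among the nearest 3 for 4 of the 5 genes, all but Capn8.

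Inside the groups of the 12 females the neighbours were other genes. Capn8 was closest to Macc1 (r = 0.927), Dsp (0.908) and Ehf (0.899), of which Dsp encodes the desmosome protein desmoplakin and Ehf an epithelial transcription factor. Ido1 was closest to Galnt3 (0.953), Faim2 (0.936) and Plekha5 (0.922), and Hc to Fmn1 (0.957), Plekha5 (0.911) and Trim21 (0.907). Pak6 was closest to Ninl (0.923), Oas1b (0.885) and Kif18b (0.884), and Proc to Nr1d1 (0.938), a circadian nuclear receptor, Cdyl2 (0.934) and Kif16b (0.931). Of all these only Faim2 near Ido1 recurred from the comparison over 24 animals. Among the 5 genes themselves, Ido1 and Hc were the closest pair inside the groups (r = 0.813), followed by Capn8 and Ido1 (0.626) and Capn8 and Hc (0.547). Capn8 with Pak6 (0.076) and Hc with Pak6 (0.088) were the least alike. Genes compared over the same libraries share their depth and scaling, and these r are given without a test. The neighbours are the highest of many r over few animals, and how high such r run between unrelated genes was not computed.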

How the data were processed

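Poly(A) RNA libraries of 24 mice (KAPA mRNA HyperPrep, per the labels) were processed with fastp, HISAT2, featureCounts and DESeq2 1.38.3 on mm10, per the submitters' processing notes, which give neither roles nor order. The authors deposited a normalised signal per gene and sample: reads divided by a factor of each sample. All values (100%, tolerance 0.001 of a read) were whole multiples of a sample's smallest, so whole reads were recovered. 1 read was worth 0.00358 to 0.0154 units. Of 16208 rows, 90 repeats were left out. Replicates were compared by chi-square on reads. Over 36 pairs the lowest chi-square per degree of freedom was 77.11, far above sampling noise, and all libraries were kept separate.

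The values being normalised, limma 3.58.1 (R 4.3.3, variance trend) on log2(value + 1) was the main test, over genes kept by filterByExpr (minimum count 10), with Benjamini-Hochberg adjustment over all of them and a threshold of 0.05. A fold on this scale understates changes of low genes. edgeR 4.0.16 and DESeq2 1.42.0 on recovered reads were alternatives. Intervals are 95% and use limma's moderated error. Tested on simulated data with 16005 genes, 200 of them with a slope of 1 or -1, the keratin fit recovered 171 (85.5%) with 14 false calls. Slopes as small as those of the members were not simulated. For 200 genes changed by 1 on the log2 scale, p28 SW against p21 in females recovered 146 and p28 DW against SW 149. The interactions with sex recovered fewer, 75 (37.5%) for age and 67 (33.5%) for weaning.

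The members and lists were chosen with earlier results of these data known. Named were the 5 members, the 7 keratins, at most 4 called genes of a pathway list by smallest p (C2 and Cd55 go beyond it and were chosen after their values were seen) and the 3 nearest genes by correlation. The luminal, basal, liver and stomach genes named were picked the same way after their values were seen. Other alternatives were a pseudocount of 0.1, other filters, luminal or basal keratins alone, a muscle covariate, only p28 females, and leaving out each animal. Leaving out DW females 82 and 83 was added after seeing the data. Groups follow the descriptions and age labels. For the p21 libraries the titles name a different age, and 1 title has a different animal number. Depth sets counting error only.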

Additional observations from a re-analysis of the deposited data

Results flagged for a closer look

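2 males stood apart from the other 3 of their group in both Capn8 and the keratins. On the log2(value + 1) scale Capn8 was 0.201 in p21 male 54 and 0.427 in SW male 78, where the other 3 males of each group were at 0. The keratin score of p21 male 54 was 1.243 and those of its group mates 0.094 to 0.150, and SW male 78 had 1.703 beside 0.157 to 0.340. These were 4 of 36 groups of 4 animals examined, where chance gives about 1 in 20, or 1.8. That rate does not hold for Capn8, since beside 3 males at 0 any value above 0 stands apart. The 4 also come from the same 2 males, so no excess over chance can be read from them. The other 4 genes had no such animal.

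The effect of age under SW differed between the sexes for Capn8 (1.894), Ido1 (1.763), Hc (1.688), Pak6 (1.001) and Proc (0.8838), on the log2(value + 1) scale. The effect of weaning differed between the sexes for Hc (-1.21), Pak6 (-0.6689) and Proc (-0.6272) by limma. On recovered reads the Proc value was 0.1125 with edgeR and 0.1127 with DESeq2, of the opposite sign. By adjusted p, edgeR called 0 genes for this contrast and limma 3 of 16005. At an unadjusted p under 0.05 limma had 815. These are the contrasts that chose the genes and support nothing further.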

How the results depend on the processing

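The 5 female slopes stayed above 0 under every setting run, and leaving out each female gave 0.2169 to 0.321 for Capn8, 0.1766 to 0.308 for Ido1, 0.04248 to 0.2559 for Hc, 0.03229 to 0.111 for Pak6 and 0.08238 to 0.2263 for Proc. The limma call changed only for Proc without p21 female 55 (0.2263), and DESeq2 passed Capn8 (0.5971). The number of genes called on the score was far less stable: 65 became 1108 with DESeq2, 4 with basal keratins alone, 6280 with only the 8 females at p28 and 8 without DW females 82 and 83, and it ran from 13 (without DW female 77) to 4562 (without p21 female 55) over single females left out. It was 20 without female 76, 21 without 82 and 40 without 83.

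In males, leaving out 1 animal gave slopes of 0.1881 to 0.2726 for Capn8, 0.06577 to 0.1776 for Ido1, -0.1395 to 0.08522 for Hc, -0.05468 to 0.001128 for Pak6 and -0.006181 to 0.04176 for Proc, and Hc turned to 0.06081 with a pseudocount of 0.1.

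For age by sex, 165 calls became 38 with a pseudocount of 0.1, 4 with edgeR (TMM or DESeq2 size factors), 102 with DESeq2 and 21 with the keratin score, and 115 to 196 with 1 animal left out. For weaning by sex, 3 calls became 0 with the pseudocount, edgeR (either scaling) or the keratin score and 1 with DESeq2, 0 without DW females 82 and 83, and 0 to 8 with 1 animal left out. For SW against p21 in females, 1860 calls became 296 with the keratin score, and 1394 to 1603 with 1 animal left out. For DW against SW in females, 204 calls became 63 with the pseudocount, 71 and 61 with edgeR (TMM and DESeq2 size factors) and 12 with the keratin score, 7 without DW females 82 and 83, and 45 (without DW female 82) to 1996 (without DW female 76) with 1 animal left out. The causes were not tested. No paired analysis was possible because the groups share no animal numbers.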
